A study of Mus musculus with 12 samples.

Results

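The insulin-like growth factor (IGF) axis was followed through 10 genes, chosen by gene symbol: the ligands Igf1 and Igf2, the receptors Igf1r and Igf2r, and the binding proteins Igfbp2, Igfbp3, Igfbp4, Igfbp5, Igfbp6 and Igfbp7. All 10 were measured, each by 1 probe set, among 19938 genes on the arrays. The cells were mouse cardiac colony-forming-unit fibroblasts (cCFU-F), sorted from hearts of C57BL/6 males aged 12 weeks as SCA1+PDGFRα+CD31- cells and grown in bulk culture, and expression was read on 12 arrays in 4 groups of 3. The groups were cells given PDGF-AB at 50 ng/ml, a ligand of the PDGF receptors; cells given AG1296, a tyrosine kinase inhibitor of these receptors that also acts on KIT, at 10 uM; cells given AG1296 at 1 uM; and untreated cells. Strain, age, sex and sort were the same in all 4 groups, while neither how long treatment lasted nor the vehicle is stated in the sources used here. The labels do not say whether the 3 arrays of a group came from separate cultures or animals, so p-values here reflect only array-to-array spread, which may be technical.

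IGF1 and IGF2 are secreted hormones that act on the receptor tyrosine kinase encoded by Igf1r, which signals through insulin receptor substrates, PI3K-AKT and ERK and promotes growth and survival. The product of Igf2r takes up IGF2 and sends it to the lysosome. IGF-binding proteins hold the ligands in the extracellular space, prolong their stability and limit or direct their access to the receptor, and proteases release the ligands by cleaving them. Fibroblasts of the heart are a known local source of IGF1.

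The cell type was checked on marker lists, and arrays of a group correlated at r of 0.992 to 0.996 over genes, which are not independent replicates. The 9 fibroblast markers had summed signals (log2 undone) of 7124 to 8329 with PDGF-AB and 8019 to 8568 with AG1296 10 uM. The sums were 7809 to 8295 with AG1296 1 uM and 6663 to 6997 in untreated cells. The brightest markers of a list weigh most in such a sum, here Col1a1 and Col1a2 (group means 11.05 to 11.61, log2). All markers but Lum lay above the array median on every array. Lum averaged 2.57 with PDGF-AB, 2.43 with AG1296 10 uM and 2.49 in untreated cells (log2), below the median on every array. With AG1296 1 uM Lum averaged 4.40 and lay above the median on every array. Pdgfra, the receptor of the sort, averaged 9.55 with PDGF-AB, 9.02 with AG1296 10 uM, 8.51 with AG1296 1 uM and 9.42 in untreated cells (log2). No marker was at 0 on any array. Against untreated cells 0 of the 9 fibroblast markers passed with PDGF-AB (limma, adjusted p under 0.05), where 0.331% of all genes did. At AG1296 10 uM 3 rose and 1 fell, where 1.21% of all genes rose and 0.672% fell. At AG1296 1 uM 4 rose and 1 fell, where 1.88% rose and 1.33% fell. Dcn averaged 7.18 with PDGF-AB, 8.39 with AG1296 10 uM, 9.35 with AG1296 1 uM and 7.64 in untreated cells.

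Single markers of other cell types also moved with the treatments. Endothelial markers summed to 90.8 to 104 over all groups, and 5 of 8, Pecam1 (CD31) among them, lay below the array median on all 12 arrays; Tek rose by 0.73 at 1 uM (adjusted p = 0.000761). Of 6 epicardial markers 2 fell at 10 uM, where 0.672% of all genes fell, and 3 fell and 1 rose at 1 uM, where 1.33% fell and 1.88% rose. They summed to 302 to 315 in untreated cells and 250.3 to 296 with PDGF-AB. With AG1296 they summed to 219 to 233 at 10 uM and 242 to 248 at 1 uM. Upk1b averaged 6.94 in untreated cells, 6.70 with PDGF-AB, 5.81 at 10 uM and 6.11 at 1 uM (log2). Upk3b, the marker that rose, averaged 5.90, 5.42, 6.19 and 6.45 in the same order. Krt19 averaged 5.83, 5.68, 5.35 and 5.11, and Lrrn4 5.27, 5.07, 4.43 and 4.56. PDGF-AB gave 2 of 6 higher and 1 lower against 10 uM (limma), where 1.42% of all genes were higher and 2% lower. Against 1 uM 3 were higher and 1 lower, where 2.28% of all genes were higher and 2.93% lower. At 1 uM, Krt19 was lost without untreated replicate 1 or 2 and without AG1296 1 uM replicate 2 or 3 (at most 0.0692), and Lrrn4 without AG1296 1 uM replicate 2 (0.0572) or untreated replicate 3 (0.0539).

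The 9 leukocyte markers summed to 109 to 129 with PDGF-AB, 147 to 167 with AG1296 10 uM, 138 to 161 with AG1296 1 uM and 121 to 140 in untreated cells, and 6 of them, Ptprc among them, lay below the array median on all 12 arrays. Against untreated cells 0 of the 9 passed with PDGF-AB, 10 uM or 1 uM (limma), where 0.331%, 1.88% and 3.2% of all genes did. At an unadjusted p under 0.05 there were 2, 1 and 2, beside 8.55%, 11.4% and 13.1% of all genes. Between PDGF-AB and the inhibitor 1 of 9 passed at each dose, where 3.42% (10 uM) and 5.21% (1 uM) of all genes did. This was Lyz2, lower with PDGF-AB than with AG1296 10 uM (-1.02, adjusted p = 0.00634) and 1 uM (-0.79, adjusted p = 0.0239). The call of Lyz2 against 1 uM was lost without PDGF-AB replicate 1 or 3 or AG1296 1 uM replicate 2 (up to 0.117). The 8 mural markers summed to 717 to 844 with PDGF-AB and 777 to 823 with AG1296 10 uM. They summed to 730 to 787 with AG1296 1 uM and 708 to 798 in untreated cells. Pdgfrb, with group means of 8.95 to 9.22 (log2), weighs most in these sums. Of the 8, 3 were higher with PDGF-AB than with AG1296 1 uM and 0 lower (limma), where 2.28% and 2.93% of all genes were. For 10 uM the counts were 0 higher and 1 lower, where 1.42% and 2% of all genes were. The mural markers that passed against untreated cells numbered 0 with PDGF-AB, 2 at 10 uM and 1 at 1 uM. Among them Mcam fell by 0.59 at 10 uM (adjusted p = 0.00381) and by 1.42 at 1 uM (adjusted p = 1.15e-06), and Myh11 rose by 0.54 at 10 uM (adjusted p = 0.0398), a call lost without AG1296 10 uM replicate 1 or 2, PDGF-AB replicate 2 or 3, untreated replicate 1 or 3 or any of the AG1296 1 uM arrays (up to 0.187). The 8 cardiomyocyte markers summed to 221 to 233 with PDGF-AB, 180 to 192 with AG1296 10 uM, 188 to 202 with AG1296 1 uM and 199 to 202 in untreated cells, and 4 of them, Myh6 among them, lay below the array median on all 12 arrays. Among them Tnnt2 was higher with PDGF-AB than with 10 uM by 0.46 (adjusted p = 0.0099) and than with 1 uM by 0.38 (adjusted p = 0.0258). The first was lost without AG1296 10 uM replicate 1 (0.0609), the second without PDGF-AB replicate 1 or 3 or AG1296 1 uM replicate 2 or 3 (up to 0.108). The part of these cells in the changes of the IGF genes was not tested.

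Expression of the receptor Igf1r, the ligand Igf1 and 3 of the binding proteins differed between the groups. In the F test over the 4 groups (limma, Benjamini-Hochberg adjusted p under 0.05), 5 of the 10 genes passed, Igf1, Igf1r, Igfbp2, Igfbp3 and Igfbp7, where 5% of all genes tested did. AG1296 at 1 uM raised Igf1, Igfbp2, Igfbp3 and Igfbp7, and AG1296 at 10 uM raised Igf1 and Igfbp7. With PDGF-AB, Igf1, Igf1r and Igfbp2 were below the untreated level on every array, but 0 of the 10 genes passed against untreated cells (limma), where 0.331% of all genes did. All 3 were lower with PDGF-AB than with either dose of the inhibitor.

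**Figure D1:**
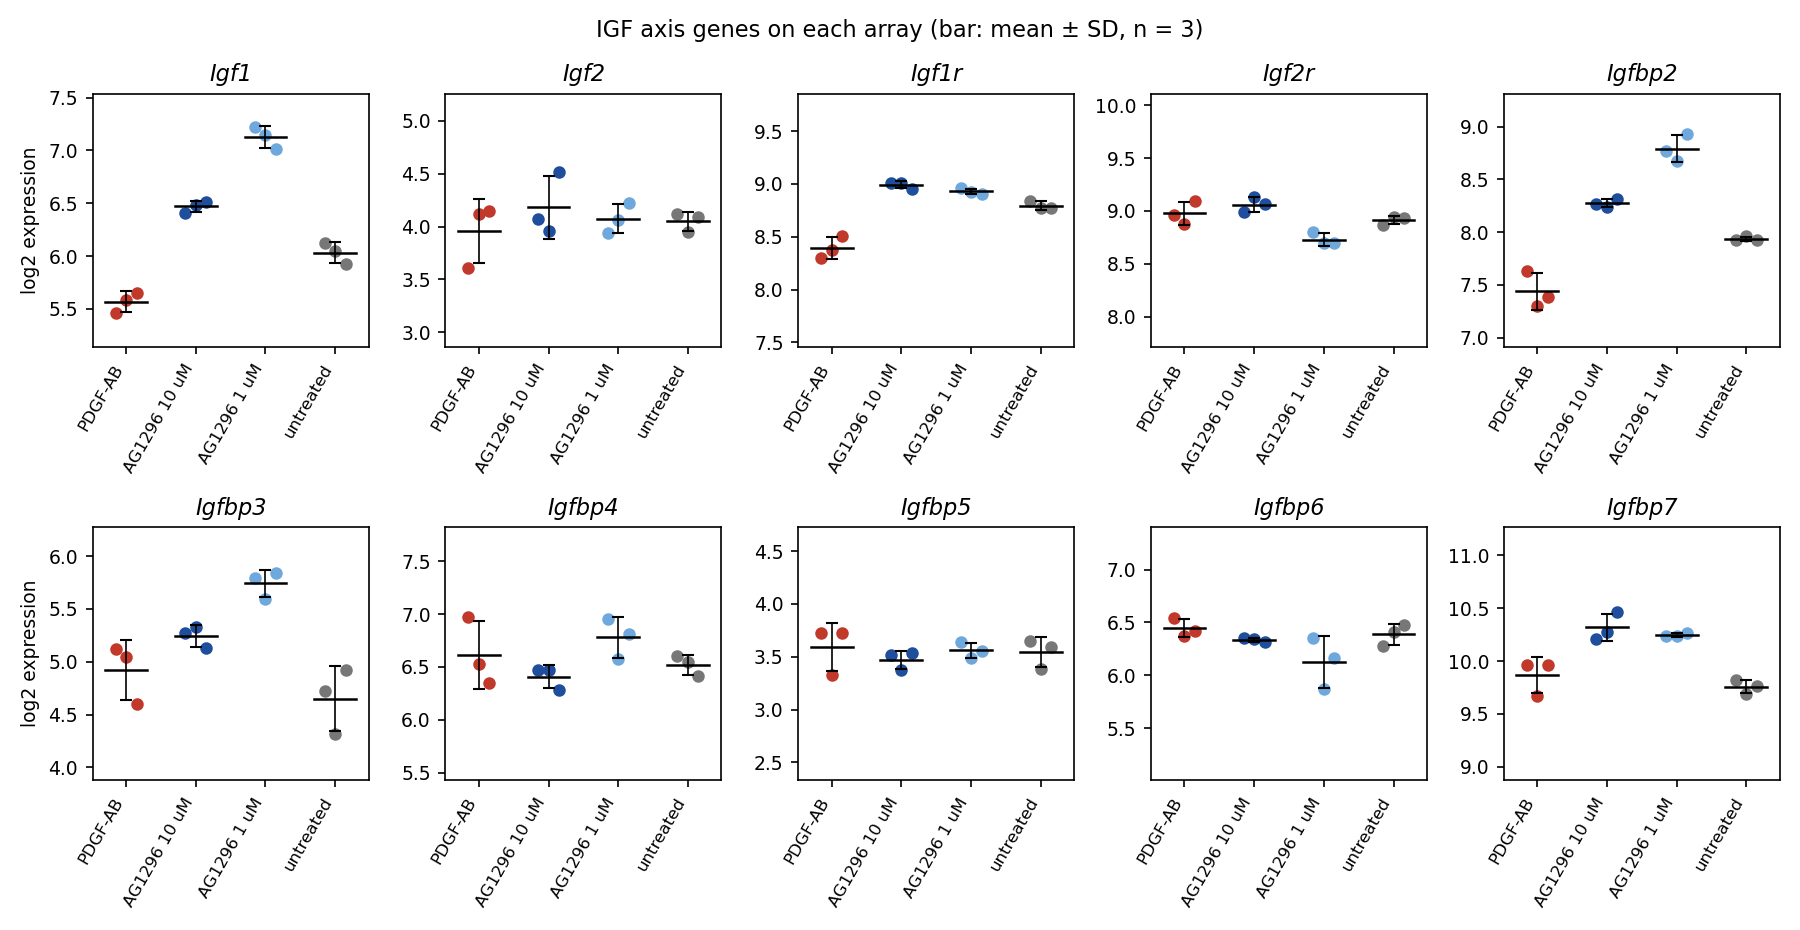
Log2 expression (vertical axes, each spanning the same number of log2 units) of the 10 IGF axis genes on every array, by group along the horizontal axes. Points are arrays, and bars give the mean ± SD of 3 arrays. For Igf1 and Igfbp2 the 4 groups lie apart with no overlap, while for Igf2 and Igfbp5 every group overlaps every other.

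Within each comparison the genes that passed all moved one way. For PDGF-AB against untreated cells 3 of 10 had an unadjusted p under 0.05 (Igf1, Igf1r and Igfbp2), beside 8.55% of all genes, and the groups did not overlap for 3, beside 13.3%; of all genes 0.12% rose and 0.211% fell. All 3 passed with dim genes filtered out or with intensity-trended, robust moderation, while only Igf1 passed after quantile normalization and only Igfbp2 after median centring or without PDGF-AB replicate 1. At AG1296 10 uM 2 of 10 rose and 0 fell, where 1.21% of all genes rose and 0.672% fell (1.88% together). There 5 had an unadjusted p under 0.05 (all genes, 11.4%) and 6 did not overlap (all genes, 18%). At AG1296 1 uM 4 of 10 rose and 0 fell, where 1.88% rose and 1.33% fell (3.2% together). Of the 10 genes 6 had an unadjusted p under 0.05 (all genes, 13.1%) and 6 did not overlap (20.3%).

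Between the treatments the shares also lay above those of all genes. The members were chosen with earlier results of these data known, so such an excess is no independent evidence. The comparisons also share arrays and largely the same genes, so they do not count as repeats of each other. At 10 uM against 1 uM 2 of 10 were lower and 0 higher, where 0.181% of all genes were lower and 0.196% higher (0.376% together), with 5 at an unadjusted p under 0.05 (9.07%) and 5 not overlapping (15.9%). PDGF-AB gave lower levels than AG1296 10 uM for 4 of 10 genes and higher for 0, where 2% of all genes were lower and 1.42% higher (3.42% together). There 4 had an unadjusted p under 0.05 (14.1%) and 6 did not overlap (18.1%). Against AG1296 1 uM 5 of 10 were lower and 0 higher, where 2.93% of all genes were lower and 2.28% higher (5.21% together), with 7 at an unadjusted p under 0.05 (16.9%) and 7 not overlapping (21.8%). Igf1, Igf1r, Igfbp2 and Igfbp7 were lower than with both doses, as were 1.52% of all genes. The median log2 fold changes of the 10 genes against untreated cells were 0.05, 0.17 and 0.20 for PDGF-AB, AG1296 10 uM and AG1296 1 uM, beside 0.01, 0.01 and -0.01 over all genes. These 3 comparisons share the untreated arrays. Fewer cells of a type and less RNA per cell cannot be told apart in such bulk samples.

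Igf1, the ligand that binds the IGF1 receptor most tightly, separated all 4 groups. Its log2 values were 5.46, 5.59 and 5.65 with PDGF-AB, 6.41, 6.49 and 6.51 with AG1296 10 uM, 7.22, 7.15 and 7.01 with AG1296 1 uM, and 6.12, 6.04 and 5.93 in untreated cells. No group overlapped another, with PDGF-AB at the bottom, untreated cells above it and the lower dose of inhibitor at the top. At 1 uM Igf1 rose by 1.10 ± 0.09 on the log2 scale (SE, n = 3 per group), a 2.14-fold change (limma, adjusted p = 8.65e-06). At 10 uM it rose by 0.44 ± 0.09, or 1.36-fold (adjusted p = 0.023). The level at 10 uM was 0.66 lower than at 1 uM (log2 difference -0.66 ± 0.09, adjusted p = 0.00778). With PDGF-AB the difference from untreated cells was -0.46 ± 0.09 and did not pass (adjusted p = 0.0554, 95% interval -0.66 to -0.27). Against the inhibitor, PDGF-AB gave -0.90 ± 0.09 for 10 uM (adjusted p = 4.86e-05) and -1.56 ± 0.09 for 1 uM (adjusted p = 1.71e-07), where the level with the inhibitor was 2.95-fold higher. The Igf1 calls for 1 uM and for PDGF-AB against either dose stood whichever single array was left out and under every other setting tried. The call at 10 uM against untreated cells was lost without AG1296 10 uM replicate 1, 2 or 3 (adjusted p = 0.0569, 0.0901 and 0.0849) and without untreated replicate 2 or 3 (0.0818 and 0.119), after median centring of each array (0.0669) and in a fit of only the 2 groups (0.0663). The dose difference was lost without AG1296 10 uM replicate 1 (0.055) or AG1296 1 uM replicate 2 (0.0518) and in a fit of only the 2 groups (0.0644). The difference between PDGF-AB and untreated cells passed after quantile normalization (0.0431), with dim genes filtered out (0.0153) and with intensity-trended, robust moderation (0.0123).

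The sequence before a RefSeq start of Igf1 is shown because Igf1 separated all 4 groups. The promoter table used (GRCm38.p6) holds 1 start for Igf1, and the 250 bases before it lie at chr10:87860861-87861110 on the plus strand. This window lies within the Igf1 gene record, which begins at 87858265. The bases before that position were not searched. Each window was searched on both strands for 7 motifs: AP-1 (TGACTCA), FOXO (TGTTTAC), STAT5 (TTCNNNGAA), the GC box (GGGCGG), TEAD (GGAATG), the TATA box (TATANA) and EGR1 (GCGTGGGCG). Capitals mark matches, and the Igf1 window held none. Of 32851 such windows 4.46% hold the AP-1 letters, 3.17% FOXO, 7.02% STAT5, 32.7% the GC box, 12.6% TEAD, 22.6% the TATA box and 0.536% EGR1. A match describes letters and no binding was measured.
Igf1: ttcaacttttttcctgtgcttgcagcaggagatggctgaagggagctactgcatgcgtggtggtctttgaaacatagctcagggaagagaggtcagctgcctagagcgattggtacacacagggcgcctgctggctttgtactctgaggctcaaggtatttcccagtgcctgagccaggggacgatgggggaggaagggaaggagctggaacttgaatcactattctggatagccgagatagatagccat

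Igf2, the fetal ligand, which is imprinted and expressed from the paternal allele, showed no difference that passed. Its log2 values ran from 3.60 to 4.14 with PDGF-AB, from 3.96 to 4.52 with AG1296 10 uM, from 3.94 to 4.22 with AG1296 1 uM and from 3.95 to 4.11 in untreated cells. The groups overlapped in all 6 comparisons, and the values lay around the array medians, which were 4.02 to 4.13. The log2 differences from untreated cells were -0.09, 0.13 and 0.02 for PDGF-AB, AG1296 10 uM and AG1296 1 uM (adjusted p = 0.918, 0.848 and 0.982). The 95% interval at 1 uM was -0.32 to 0.37, so with 3 arrays per group a difference within it was not excluded. The sign of all 3 differences turned when single arrays were left out.

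Igf1r, the receptor kinase for both ligands, was lower in cells given the ligand PDGF-AB than in cells given the inhibitor. Its log2 values were 8.30, 8.37 and 8.51 with PDGF-AB, 9.01, 9.01 and 8.96 with AG1296 10 uM, 8.96, 8.92 and 8.91 with AG1296 1 uM, and 8.84, 8.77 and 8.77 in untreated cells. The PDGF-AB arrays lay below all the others, and the inhibitor arrays lay above the untreated ones by a small margin. PDGF-AB against AG1296 10 uM gave -0.60 ± 0.08 on the log2 scale (SE; adjusted p = 0.000542), and against AG1296 1 uM -0.54 ± 0.08 (adjusted p = 0.000917). Both stood whichever single array was left out. Neither dose passed against untreated cells, with 0.20 at 10 uM (adjusted p = 0.346) and 0.14 at 1 uM (adjusted p = 0.538). PDGF-AB against untreated cells gave -0.40 ± 0.08 (adjusted p = 0.0585), and this passed with dim genes filtered out (0.0144) and with intensity-trended, robust moderation (0.00149). The doses of inhibitor gave a difference of 0.06, with a 95% interval of -0.11 to 0.24.

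Igf2r, the uptake receptor for IGF2, did not pass in any comparison. It ran from 8.87 to 9.10 with PDGF-AB, from 8.99 to 9.13 with AG1296 10 uM, from 8.69 to 8.80 with AG1296 1 uM and from 8.87 to 8.94 in untreated cells. The 1 uM arrays lay below those of the other 3 groups. The difference of 10 uM from 1 uM was 0.33 ± 0.09 (adjusted p = 0.171) and that of PDGF-AB from 1 uM 0.25 ± 0.09 (adjusted p = 0.139). Both passed with intensity-trended, robust moderation (0.0106 and 0.0225) and under no other setting tried.

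**Figure D2:**
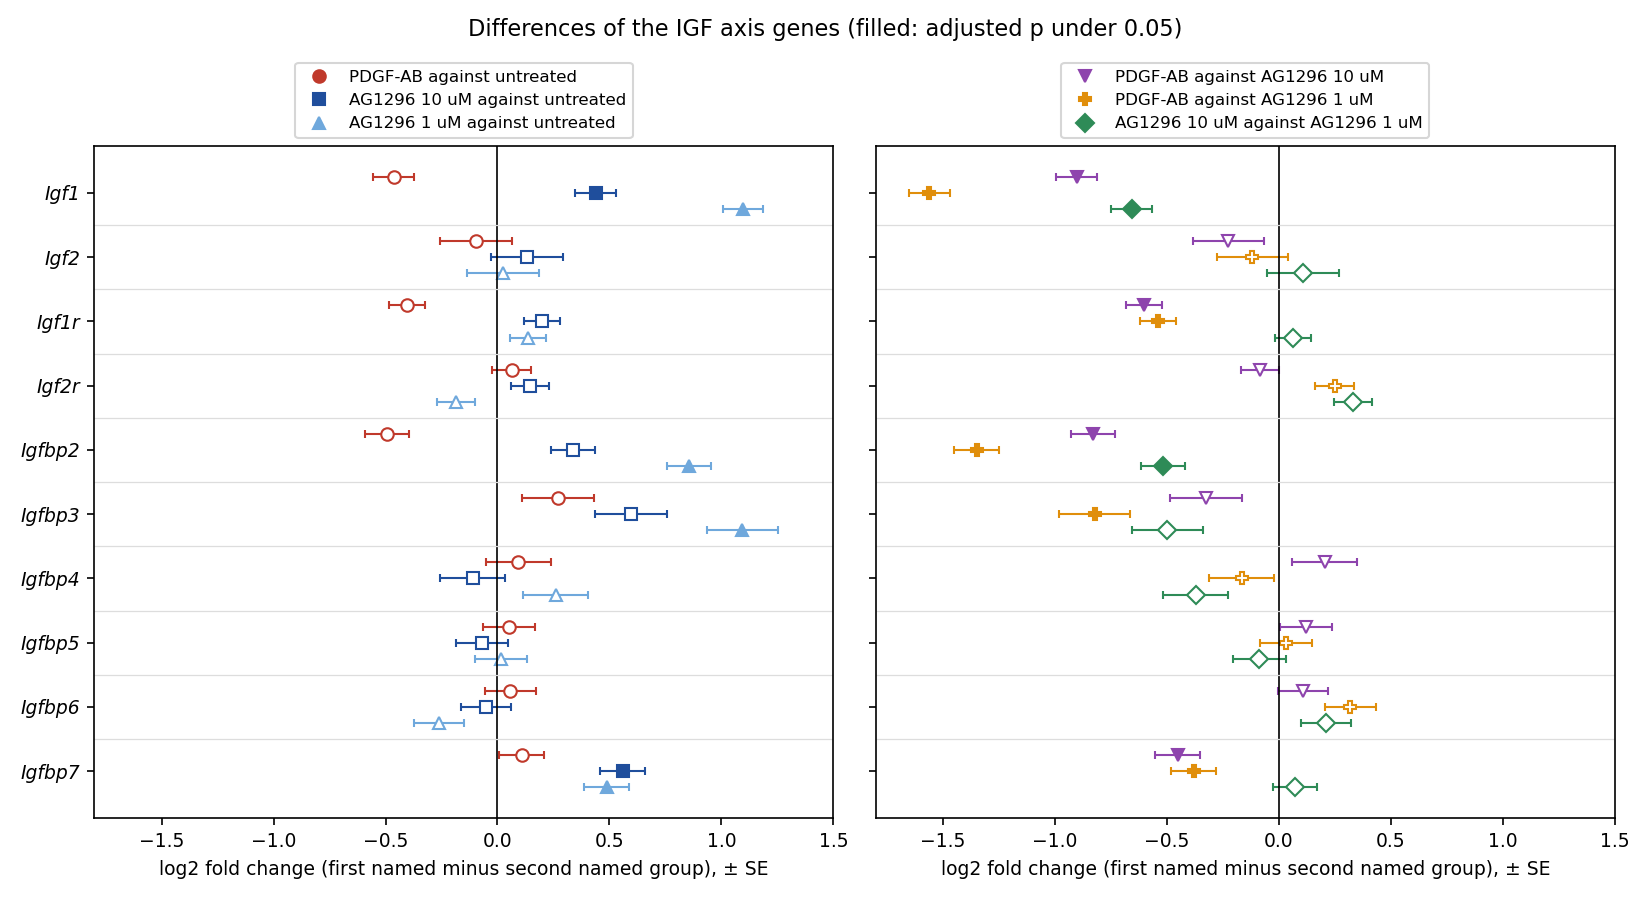
Log2 fold changes ± SE (horizontal axes) of the 10 genes, against untreated cells on the left and between treatments on the right. Filled symbols mark an adjusted p under 0.05. Igf1 stands at -0.46 with PDGF-AB and at 0.44 and 1.10 with AG1296 10 uM and 1 uM, and Igfbp2 at -0.49, 0.34 and 0.86.

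Igfbp2, a binding protein that prefers IGF2 and also has IGF-independent effects through integrins, followed the same order of groups as Igf1. Its log2 values were 7.63, 7.30 and 7.39 with PDGF-AB, 8.27, 8.24 and 8.31 with AG1296 10 uM, 8.77, 8.67 and 8.93 with AG1296 1 uM, and 7.92, 7.96 and 7.92 in untreated cells. No group overlapped another. At 1 uM it rose by 0.86 ± 0.10 on the log2 scale, or 1.81-fold (SE, adjusted p = 0.000192). At 10 uM the difference was 0.34 ± 0.10 and did not pass (adjusted p = 0.136), although it did with intensity-trended, robust moderation (0.0207). The level at 10 uM lay below that at 1 uM, with a difference of -0.52 ± 0.10 (adjusted p = 0.0459). PDGF-AB against untreated cells gave -0.49 ± 0.10 (adjusted p = 0.061), against AG1296 10 uM -0.83 ± 0.10 (adjusted p = 0.000205) and against AG1296 1 uM -1.35 ± 0.10 (adjusted p = 1.5e-06). The rise at 1 uM and both differences between PDGF-AB and inhibitor held whichever single array was left out. The dose difference of Igfbp2 did not pass when any 1 of the 6 inhibitor arrays was left out (adjusted p up to 0.167), without PDGF-AB replicate 3 (0.0652) and without untreated replicate 1, 2 or 3 (0.0768, 0.0729 and 0.0732), and also after quantile normalization (0.069), with all probe sets in the fit (0.0665) and in a fit of only the 2 groups (0.12). The difference between PDGF-AB and untreated cells passed without PDGF-AB replicate 1 (0.0284), after median centring (0.0469), with dim genes filtered out (0.02) and with intensity-trended, robust moderation (0.00229).

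Igfbp2 has 2 starts in the promoter table, and both windows are shown because its groups lay in the same order as those of Igf1. The first lies at chr1:72824230-72824479 and the second at chr1:72825137-72825386, both on the plus strand. The first window held 3 GC boxes, which begin 113, 98 and 37 bases before the start, and the second held 1 match to the AP-1 letters, on the minus strand, 39 to 33 bases before the start.
Igfbp2 first start: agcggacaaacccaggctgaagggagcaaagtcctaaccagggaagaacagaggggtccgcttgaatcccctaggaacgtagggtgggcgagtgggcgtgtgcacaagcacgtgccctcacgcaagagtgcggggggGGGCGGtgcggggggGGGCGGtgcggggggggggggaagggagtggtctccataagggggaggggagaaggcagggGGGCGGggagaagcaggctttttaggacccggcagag
Igfbp2 second start: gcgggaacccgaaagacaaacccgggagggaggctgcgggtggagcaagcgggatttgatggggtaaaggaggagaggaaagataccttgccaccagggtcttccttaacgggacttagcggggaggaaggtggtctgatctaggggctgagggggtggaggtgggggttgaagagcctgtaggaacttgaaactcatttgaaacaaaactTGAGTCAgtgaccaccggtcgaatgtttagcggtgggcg

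Igfbp3, the main carrier of IGFs in blood and also a secreted product of fibroblasts, rose at 1 uM. Its log2 values were 5.12, 5.05 and 4.60 with PDGF-AB, 5.28, 5.33 and 5.13 with AG1296 10 uM, 5.79, 5.60 and 5.84 with AG1296 1 uM, and 4.72, 4.31 and 4.92 in untreated cells. Both doses of inhibitor lay above every untreated array, and PDGF-AB overlapped untreated cells. The change at 1 uM was 1.09 ± 0.16 on the log2 scale, or 2.13-fold (SE, adjusted p = 0.00126). At 10 uM it was 0.60 ± 0.16 (adjusted p = 0.0887), which passed with dim genes filtered out (0.0408) and with intensity-trended, robust moderation (0.0267). Here PDGF-AB and untreated cells differed by 0.27 ± 0.16 (adjusted p = 0.672), a positive value where those of Igf1 and Igfbp2 were negative. PDGF-AB against AG1296 1 uM gave -0.82 ± 0.16 (adjusted p = 0.00649) and against AG1296 10 uM -0.33 ± 0.16 (adjusted p = 0.391). Both calls that passed did so whichever single array was left out. The difference between the doses, -0.50 ± 0.16, did not pass (adjusted p = 0.303).

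The Igfbp3 window, at chr11:7213924-7214173 on the minus strand, is shown because Igfbp3 rose at 1 uM, and it carried TATA letters near the start. So did the window of Igfbp4, which passed in no comparison, with 1 match 28 to 23 bases before its start. Those of Igfbp3 are 3 overlapping matches over both strands, the nearest of them 30 to 25 bases before the start. No AP-1, FOXO, STAT5, GC box, TEAD or EGR1 letters were found in its window. Both windows lie within the gene records. The Igfbp3 record reaches upstream to 7215498 and that of Igfbp4 to 99040005, and bases before those positions were not searched.
Igfbp3: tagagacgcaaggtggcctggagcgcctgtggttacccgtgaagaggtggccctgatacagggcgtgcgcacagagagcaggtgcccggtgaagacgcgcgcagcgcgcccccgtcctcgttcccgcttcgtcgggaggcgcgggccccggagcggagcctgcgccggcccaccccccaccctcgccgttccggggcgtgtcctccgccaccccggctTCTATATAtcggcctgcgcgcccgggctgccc

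Igfbp7, a secreted protein that binds IGFs only weakly and is abundant in vessels and stroma, rose by a similar amount at both doses. Its log2 values were 9.96, 9.67 and 9.97 with PDGF-AB, 10.21, 10.28 and 10.47 with AG1296 10 uM, 10.24, 10.23 and 10.27 with AG1296 1 uM, and 9.82, 9.69 and 9.77 in untreated cells. All inhibitor arrays lay above all PDGF-AB and untreated ones, which overlapped each other. It rose by 0.56 ± 0.10 at 10 uM (SE, adjusted p = 0.00904) and by 0.49 ± 0.10 at 1 uM (adjusted p = 0.0153). The doses differed by 0.07, with a 95% interval of -0.14 to 0.29, so a dose difference of the size seen for Igf1 lay outside it. PDGF-AB against AG1296 10 uM gave -0.45 ± 0.10 (adjusted p = 0.0223) and against AG1296 1 uM -0.38 ± 0.10 (adjusted p = 0.0436), while PDGF-AB and untreated cells differed by 0.11 (adjusted p = 0.819). The Igfbp7 rise at 10 uM stood whichever single array was left out. The rise at 1 uM was lost without AG1296 1 uM replicate 1, 2 or 3 (0.0616, 0.0519 and 0.0582) and without untreated replicate 2 or 3 (0.0697 and 0.0535). The difference of PDGF-AB from 10 uM was lost without PDGF-AB replicate 2 (0.0947) or AG1296 10 uM replicate 2 or 3 (0.0589 and 0.0972), and in a fit of only the 2 groups (0.119). That from 1 uM was lost on leaving out any 1 of the PDGF-AB, AG1296 1 uM or untreated arrays, or AG1296 10 uM replicate 1 or 2 (adjusted p up to 0.144), after quantile normalization (0.091), with all probe sets in the fit (0.0585) and with only the 2 groups (0.111).

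Igfbp4, Igfbp5 and Igfbp6 did not pass in any comparison. Igfbp4, which inhibits IGF action until the protease PAPP-A cleaves it, ran from 6.34 to 6.97 with PDGF-AB, from 6.28 to 6.48 with AG1296 10 uM, from 6.57 to 6.95 with AG1296 1 uM and from 6.41 to 6.60 in untreated cells. Its 10 uM arrays all lay below its 1 uM arrays, with a difference of -0.37 ± 0.15 (adjusted p = 0.442). Igfbp5, which binds matrix as well as IGFs, lay below the array median on all 12 arrays. It ran from 3.33 to 3.73 with PDGF-AB, from 3.37 to 3.53 with AG1296 10 uM, from 3.49 to 3.64 with AG1296 1 uM and from 3.38 to 3.65 in untreated cells, and all groups overlapped. Igfbp6, which prefers IGF2, ran from 6.37 to 6.54 with PDGF-AB, from 6.32 to 6.35 with AG1296 10 uM, from 5.87 to 6.35 with AG1296 1 uM and from 6.28 to 6.48 in untreated cells. Its difference between PDGF-AB and AG1296 1 uM was 0.32 ± 0.11 (adjusted p = 0.153), and these groups did not overlap.

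**Figure D3:**
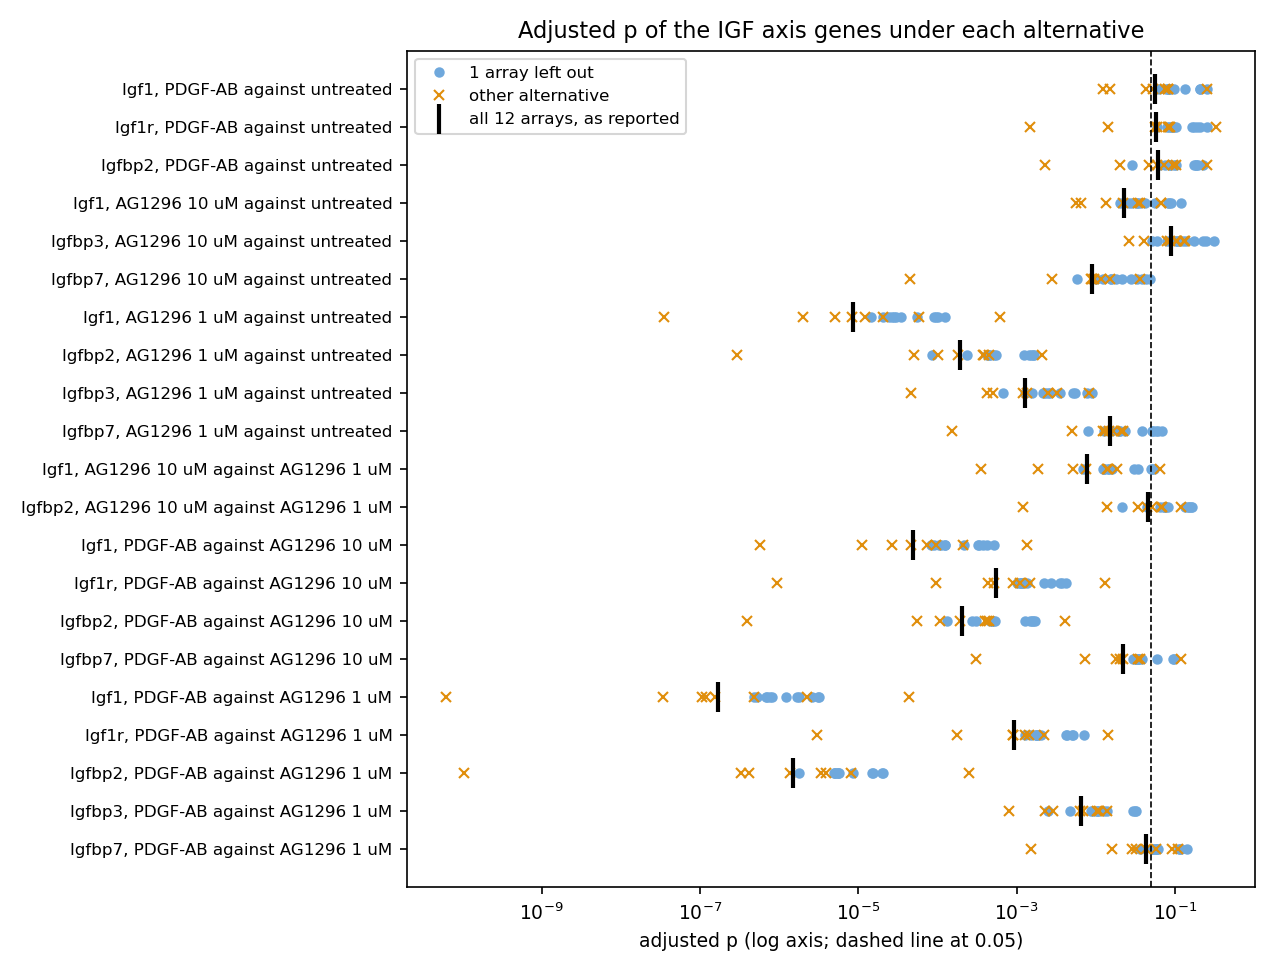
Adjusted p (log axis, dashed line at 0.05) of each IGF axis gene and comparison with an adjusted p under 0.1, with all 12 arrays (black bar), with 1 array left out (blue points) and under the other alternatives (orange crosses). All points of Igf1, Igfbp2 and Igfbp3 at AG1296 1 uM against untreated lie left of the line, and those of Igfbp2 between the doses lie on both sides.

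Among the proteases that release IGFs and their inhibitors, 5 genes changed at each dose of AG1296 and 10 did not pass. Of 16 listed genes 15 were measured. PDGF-AB raised 1, AG1296 10 uM raised 5 and lowered 0, and AG1296 1 uM raised 4 and lowered 1, each against untreated cells, where 0.331%, 1.88% and 3.2% of all genes passed. The medians were 0.09, 0.15 and 0.08, beside 0.01, 0.01 and -0.01 over all genes. Pappa, which encodes PAPP-A, the protease of IGFBP4, averaged 7.23 ± 0.08 with AG1296 10 uM, 7.12 ± 0.02 with AG1296 1 uM and 6.74 ± 0.07 in untreated cells (log2 mean ± SD, n = 3). It rose by 0.49 at 10 uM (adjusted p = 0.0141) and by 0.38 at 1 uM (adjusted p = 0.0436). Stc2, an inhibitor of PAPP-A, rose by 0.47 at 1 uM (adjusted p = 0.0181) and stood at -0.03 at 10 uM. Adamts1, a metalloprotease of the matrix, rose by 0.45 at 10 uM (adjusted p = 0.02) and by 0.65 at 1 uM (adjusted p = 0.000871). Htra1, a serine protease that cleaves IGFBPs, rose by 0.42 (adjusted p = 0.0224), Mmp14 by 0.39 (adjusted p = 0.0232) and the lysosomal protease Ctsd by 0.37 (adjusted p = 0.0251), all at 10 uM. Mmp2 rose by 0.37 at 1 uM (adjusted p = 0.0386). Plau, the urokinase that activates plasminogen, fell by 1.03 ± 0.16 at 1 uM (adjusted p = 0.00168). Adam12, which cleaves IGFBP3 and IGFBP5, rose by 0.48 with PDGF-AB (adjusted p = 0.0398).

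The 1 uM changes of Adamts1 and Plau held whichever single array was left out and under every other setting tried. Pappa at 10 uM no longer passed without AG1296 10 uM replicate 2 (0.0736) or untreated replicate 1 (0.0728). Pappa at 1 uM failed on leaving out any 1 of the inhibitor or untreated arrays (up to 0.175). Stc2 was lost without AG1296 1 uM replicate 1 (0.0982) and untreated replicate 1 or 3 (0.0915 and 0.087). At 10 uM, Adamts1 and Mmp14 were lost without AG1296 10 uM replicate 1, 2 or 3 and untreated replicate 2 or 3 (up to 0.106 and 0.121), Ctsd on leaving out any 1 of the 6 arrays of these groups (up to 0.118), and Htra1 without AG1296 10 uM replicate 2 or 3 and untreated replicate 1 or 3 (up to 0.107). Mmp2 was lost without AG1296 1 uM replicate 1 or 3, PDGF-AB replicate 2 or any 1 of the AG1296 10 uM and untreated arrays (up to 0.147), and Adam12 on leaving out any 1 array other than AG1296 10 uM replicate 3 (up to 0.183). Median centring ended all 4 calls of Adamts1, Htra1, Mmp14 and Ctsd at 10 uM and those of Pappa and Mmp2 at 1 uM and of Adam12 (0.0504 to 0.107).

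**Figure D4:**
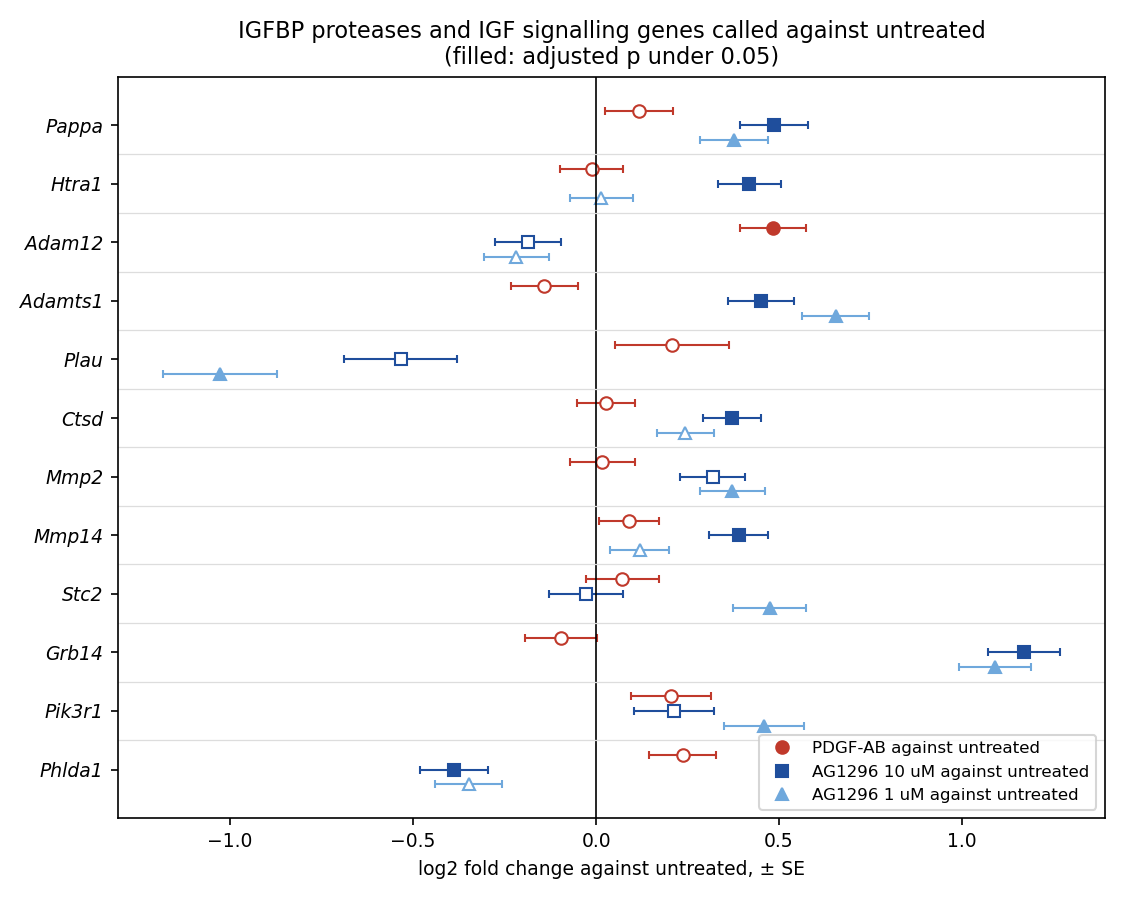
Log2 fold changes ± SE against untreated cells (horizontal axis) of the IGFBP protease and IGF signalling genes with an adjusted p under 0.05 in at least 1 of the 3 comparisons shown. Filled symbols passed. Grb14 stands at 1.17 and 1.09 with AG1296 10 uM and 1 uM and at -0.10 with PDGF-AB.

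Between PDGF-AB and the inhibitor, protease genes moved both ways. Against AG1296 10 uM 3 were higher and 4 lower of 15, where 1.42% and 2% of all genes were. Against AG1296 1 uM 3 were higher and 3 lower, where 2.28% and 2.93% of all genes were. Plau was higher by 0.74 (adjusted p = 0.0159) and 1.24 (adjusted p = 0.000198), Adam12 by 0.67 (adjusted p = 0.000542) and 0.70 (adjusted p = 0.000224), and Plat, the tissue plasminogen activator, by 0.45 (adjusted p = 0.0358) and 0.62 (adjusted p = 0.00289). Adamts1 was lower, at -0.59 (adjusted p = 0.00159) and -0.80 (adjusted p = 8.23e-05). Htra1 was lower than at 10 uM, at -0.43 (adjusted p = 0.0117), and Stc2 lower than at 1 uM, at -0.40 (adjusted p = 0.0327). The calls lost without single arrays were those of Plau (without PDGF-AB replicate 2, 0.0754, or AG1296 10 uM replicate 3, 0.0726), Plat (without PDGF-AB replicate 1 or 2, any 1 of the AG1296 10 uM arrays, AG1296 1 uM replicate 1 or untreated replicate 3, up to 0.126) and Htra1 (without AG1296 10 uM replicate 2 or 3, 0.0506 and 0.0536) at 10 uM, and Stc2 at 1 uM (without PDGF-AB replicate 2 or 3 or any 1 of the AG1296 1 uM arrays, up to 0.144).

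Among genes of receptor signalling, the largest change against untreated cells was in Grb14, an adaptor that binds and inhibits the insulin and IGF1 receptors. Of 24 listed adaptor and kinase genes 22 were measured. Against untreated cells 0 passed with PDGF-AB, 1 rose and 1 fell at AG1296 10 uM, and 2 rose and 0 fell at AG1296 1 uM, where 0.331%, 1.88% and 3.2% of all genes passed; the medians were -0.00, 0.11 and 0.02. In each of the 3 comparisons 5 of the 22 had an unadjusted p under 0.05, beside 8.55%, 11.4% and 13.1% of all genes for PDGF-AB, 10 uM and 1 uM. Grb14 averaged 6.29 ± 0.03 with PDGF-AB, 7.56 ± 0.13 with AG1296 10 uM, 7.48 ± 0.12 with AG1296 1 uM and 6.39 ± 0.12 in untreated cells (log2 mean ± SD, n = 3). It rose by 1.17 ± 0.10 at 10 uM (SE, adjusted p = 3.31e-05) and by 1.09 ± 0.10 at 1 uM (adjusted p = 1.78e-05), in every setting tried. Pik3r1, the regulatory subunit of PI3K, rose by 0.46 at 1 uM (adjusted p = 0.0378), and Phlda1, a pleckstrin-homology protein induced by growth factors, fell by 0.39 at 10 uM (adjusted p = 0.0493). Pik3r1 was lost without PDGF-AB replicate 2 or 3, AG1296 10 uM replicate 1, AG1296 1 uM replicate 1 or 2 or any 1 of the untreated arrays (up to 0.157), and Phlda1 on leaving out any 1 array other than PDGF-AB replicate 1 and untreated replicate 3 (up to 0.21).

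Against the inhibitor, PDGF-AB gave lower levels of several adaptors. Grb14 stood at -1.27 against 10 uM and -1.19 against 1 uM (adjusted p = 5.14e-06 and 4.18e-06). Gab1, a docking protein of receptor kinases, stood at -0.62 (adjusted p = 0.00386) and -0.57 (adjusted p = 0.00506), and Pik3cb, a catalytic PI3K subunit, at -0.45 (adjusted p = 0.0259) and -0.62 (adjusted p = 0.002). Irs1, the main docking protein of the IGF1 receptor, was at -0.41 against 10 uM (adjusted p = 0.0173) and -0.18 against 1 uM (adjusted p = 0.319). Phlda1 was higher, at 0.63 and 0.59 (adjusted p = 0.00111 and 0.00134). Leaving out PDGF-AB replicate 1 or AG1296 10 uM replicate 1 or 2 ended the Irs1 and Pik3cb calls against 10 uM (up to 0.0753 and 0.123), as did PDGF-AB replicate 2 for Pik3cb (0.0757). Irs1 has more than 1 probe set, and their mean gave an adjusted p of 0.0901.

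The remaining pathway genes showed little. In a list of 5 other carriers and receptors (Igfbp1, Igfbpl1, Igfals, Insr and Insrr) 0 passed in any comparison, where 0.331% to 5.21% of all genes did. At most 1 of the 5 had an unadjusted p under 0.05 in any, beside 8.55% to 16.9% of all genes. Of 12 genes that act on IGF transcripts or carry the growth hormone signal 10 were measured, and 0 passed against untreated cells, while 2, 1 and 1 had an unadjusted p under 0.05 with PDGF-AB, 10 uM and 1 uM, near the 8.55%, 11.4% and 13.1% of all genes. Cish, a STAT5 target, was higher with PDGF-AB than with AG1296 10 uM, by 0.43 (adjusted p = 0.0269), and than with AG1296 1 uM, by 0.63 (adjusted p = 0.00119). The first of these was lost without PDGF-AB replicate 1 or 3 and AG1296 10 uM replicate 1 or 3 (up to 0.126).

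Profiles were compared by Pearson correlation of log2 values over the 12 arrays, as a description in which the arrays share their groups. Predicted, clone-named, olfactory, vomeronasal, microRNA and small RNA genes were left out. Among the rest, the genes most like each of the 5 differing members are named here. For Igf1 they were Dcn (r = 0.994), which encodes the proteoglycan decorin, Papss2 (0.984), which makes the sulfate donor, and Lox (0.982), the collagen crosslinking enzyme. For Igf1r they were Pdgfd (0.979), a PDGF receptor ligand, Prss23 (0.978) and Plscr2 (0.970). For Igfbp2 they were Cthrc1 (0.981), Ltbp2 (0.971) and Vgll3 (0.963), for Igfbp3 Ccdc112 (0.960), Ctsz (0.919) and Pld3 (0.918), and for Igfbp7 Tln1 (0.978), Lrp1 (0.975) and Hspg2 (0.966). Among the members, the highest r were those of Igf1 and Igfbp2 (0.960), Igf1 and Igf1r (0.813), Igf1r and Igfbp2 (0.805) and Igfbp2 and Igfbp3 (0.756). The lowest were those of Igf1 and Igfbp6 (-0.717), Igf2 and Igfbp4 (-0.642) and Igfbp2 and Igfbp6 (-0.618).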

How the data were processed

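Total RNA of 12 samples was labelled with biotin and hybridised to 1-colour Affymetrix arrays, per the labels. The authors deposited 1 log2 value per probe set and array. Per the submitters' processing notes the authors used RMA and limma, with no versions given. Base 2 was inferred from how the values are spread, and they were not altered. Of 28853 probe sets, 21789 with exactly 1 gene symbol in the platform annotation were kept, 1621 with several symbols and 5443 with none were left out, and the brightest probe set was taken for the 999 genes with more than 1. No filter on dim genes was applied, and 10 of 10 IGF axis genes were tested. All 12 arrays entered 1 limma fit (limma 3.58.1, R 4.3.3) with a mean per group and empirical Bayes moderation. Tests were two-sided, and p-values were Benjamini-Hochberg adjusted over 19938 genes within each of 6 comparisons; a gene passed at an adjusted p under 0.05. Precision is limited by the number of arrays.

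The members, gene lists and rules were chosen with earlier results of these data known, and the 7 promoter motifs were chosen after the array values were seen. All 10 members are named; of 4 lists of other IGF genes (57 genes, 52 measured) and 6 marker lists, up to 5 called genes per list and comparison, by largest fold. Of the latter only those that bear on the results are printed. Promoter windows came from RefSeq (GRCm38.p6) and matched 10 of 10 members by symbol. For AG1296 1 uM against untreated, 5 data sets of 19938 genes with 200 changed were simulated as independent normal values. The test recovered 42.8% of changes of 0.5 and 93.2% of changes of 1 on the log2 scale, and 4.87% of its calls were false. In the real comparison 639 genes passed, and spread shared by a replicate number was not simulated. These shares may therefore not hold for the arrays. Alternatives tried were quantile normalization, median centring, a filter on dim genes, the mean of a gene's probe sets, all probe sets, an intensity trend with robust moderation, a replicate block, only the 2 groups compared, and each array left out in turn.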

Additional observations from a re-analysis of the deposited data

Results flagged for a closer look

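Igf1 and Igfbp2 are given here because the effect of AG1296 differed between its doses by a test of the difference itself. Igf1 was 0.66 lower at 10 uM than at 1 uM (log2 difference -0.66, limma adjusted p = 0.00778; all 3 arrays at 10 uM lay below all 3 at 1 uM, and adjusted p ran from 0.000354 to 0.0644 over the alternatives). Igfbp2 gave -0.52 (adjusted p = 0.0459; 3 of 3 arrays lower, adjusted p from 0.00121 to 0.167 over the alternatives). The Igf1 call stood under 17 of 20 alternatives, which include leaving out each array in turn, and the Igfbp2 call under 6 of 20. No separate test for outlying arrays was run on these groups of 3.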

How the results depend on the processing

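Of the differences of the 10 members that passed, those of Igf1, Igfbp2 and Igfbp3 at AG1296 1 uM, of Igfbp7 at AG1296 10 uM, and of Igf1, Igf1r, Igfbp2 (both doses) and Igfbp3 (1 uM) between PDGF-AB and the inhibitor kept direction and passed under all 20 alternatives. The other calls are named with their values in the report.

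The number of members that passed was 0 for PDGF-AB against untreated cells and became 1 after quantile normalization, 1 after median centring, 3 with dim genes filtered out and 3 with intensity-trended, robust moderation. At AG1296 10 uM the 2 members became 1 after centring, 3 with dim genes filtered out, 4 with trended moderation and 1 in a fit of only the 2 groups compared. Between the doses the 2 members became 1 after quantile normalization, 1 with all probe sets, 1 with the replicate block, 3 with trended moderation and 0 in a fit of only the 2 groups (limma; 5 members at an unadjusted p under 0.05 with all groups). Among all genes, the dim filter gave 114 calls for PDGF-AB against untreated (66 without it), 625 at 10 uM (375) and 149 between the doses (75). For these comparisons trended moderation gave 160, 686 and 209 genes, and the fit of only 2 groups 7, 218 and 14. Trended moderation gave 1010 genes at 1 uM (639), 1077 for PDGF-AB against 10 uM (682) and 1610 in the F test (997), and only 2 groups gave 391 genes for PDGF-AB against 10 uM and 691 against 1 uM (1039).

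Leaving out 1 array gave 0 to 1 members and 21 to 62 genes for PDGF-AB against untreated, 1 to 2 members and 219 to 434 genes at 10 uM, 3 to 4 members and 349 to 718 genes at 1 uM, 0 to 2 members and 16 to 82 genes between the doses, 3 to 4 members and 455 to 627 genes for PDGF-AB against 10 uM, 4 to 5 members and 696 to 1012 genes against 1 uM, and 5 members and 731 to 901 genes in the F test. The fewer arrays are part of these alternatives. Signs turned only among differences that had not passed. The log2 difference of Igf2 ran over single arrays left out from -0.19 to 0.082 for PDGF-AB and -0.036 to 0.24 and -0.049 to 0.0899 for 10 uM and 1 uM against untreated, from -0.0596 to 0.22 between the doses and from -0.21 to 0.058 for PDGF-AB against 1 uM. That of Igfbp4 ran from -0.084 to 0.23 for PDGF-AB, and that of Igfbp5 from -0.031 to 0.18 for PDGF-AB, -0.063 to 0.072 at 1 uM and -0.035 to 0.16 for PDGF-AB against 1 uM, where quantile normalization gave -0.017. That of Igfbp7 between the doses ran from -0.0017 to 0.12. The cause of these moves was not tested.

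Replicate numbers are shared by the groups. Deviations of same-numbered arrays correlated at -0.031 to 0.298, and over 0.1 in 9 of 18 pairs. For replicate 2 the correlation was over 0.1 in every comparison (0.154 to 0.298) and for replicate 1 in none (-0.016 to 0.065). These values do not settle whether the numbers pair the arrays. The main fit holds no replicate term, so spread shared by a replicate number was not removed from it. With the replicate block 0, 2, 4, 1, 4 and 5 members passed in the 6 comparisons and 5 in the F test, and Igfbp2 between the doses had an adjusted p of 0.0514; Mmp2 at 1 uM (0.0515), Phlda1 at 10 uM (0.0607) and Plat between PDGF-AB and 10 uM (0.0519) also no longer passed. Signal over background limits what the arrays show of Igfbp5 and Igf2.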
